A study of Mus musculus with 23 samples.

Results

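The genes described here encode 10 proteins of club cells and the airway lining: Scgb1a1, Scgb3a1, Scgb3a2, Cyp2f2, Bpifa1, Bpifb1, Cckar, Pigr, Slpi and Reg3g. Apart from the cytochrome P450 Cyp2f2, they are secreted or surface proteins. The genes were taken by symbol, and all 10 were found among the 35322 genes quantified. RNA-Seq of polyadenylated RNA from lung was available for 23 offspring of BALB/c dams, aged 13 weeks, and the study's transcriptome work was restricted to female offspring. Sham (n = 7) and PM (n = 7) offspring were born to dams given saline or PM2.5, particulate matter up to 2.5 μm in diameter, by the intranasal route from before mating until weaning, and were not challenged with allergen. The methods give them nebulised saline and do not make clear whether they were sensitised. Sham-OVA (n = 5) and PM-OVA (n = 4) offspring had the same 2 kinds of mother and were sensitised to ovalbumin (OVA) with alum and then challenged with nebulised OVA, which induces allergic airway disease (AAD). According to the study's methods, all groups, the saline groups included, went through a methacholine lung function test and a lavage of the airways before the lung was taken. The labels call the control PBS and the tissue lung with the abbreviation RML, whereas the methods give nebulised saline and the right lower lobe.

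Club cells are the non-ciliated secretory cells of the mouse bronchioles. They release small secretoglobins onto the airway surface, metabolise inhaled chemicals through cytochrome P450 enzymes, and serve as progenitors from which other airway cells, including mucous cells, are formed. The airway lining also secretes BPI fold proteins, antiproteases and antimicrobial lectins, and it carries dimeric immunoglobulin A from the tissue to the lumen on the polymeric immunoglobulin receptor.

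The promoter sequences of the genes on which the results turn were read from RefSeq (GRCm38.p6), in which 7 of the 10 genes had an entry. Scgb1a1, Scgb3a2 and Cckar were not matched. The 250 bases before the start site are given 5′ to 3′ in the direction of the gene for Slpi, which had the largest rise, for the neighbours Bpifa1 and Bpifb1, whose responses parted, and for Scgb3a1, which varied with them in saline lungs. Bpifb1 had 2 start sites in RefSeq, 9562 bases apart, and both are given. The GENCODE model of Slpi begins 32588 bases upstream of the RefSeq start. Capitals mark matches on either strand to 6 motifs.
Slpi, chr2:164356508-164356757, reverse strand: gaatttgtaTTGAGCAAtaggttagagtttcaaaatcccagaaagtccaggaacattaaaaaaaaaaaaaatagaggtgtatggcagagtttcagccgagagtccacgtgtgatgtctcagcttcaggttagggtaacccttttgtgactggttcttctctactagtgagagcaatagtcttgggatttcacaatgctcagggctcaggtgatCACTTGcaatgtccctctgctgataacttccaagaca
Bpifa1, chr2:154142630-154142879, forward strand: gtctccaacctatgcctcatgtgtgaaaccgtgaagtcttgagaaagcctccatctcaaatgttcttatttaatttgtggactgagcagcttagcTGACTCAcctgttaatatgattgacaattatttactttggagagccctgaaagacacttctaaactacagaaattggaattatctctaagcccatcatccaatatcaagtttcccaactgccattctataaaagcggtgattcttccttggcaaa
Bpifb1 upstream start, chr2:154190568-154190817, forward strand: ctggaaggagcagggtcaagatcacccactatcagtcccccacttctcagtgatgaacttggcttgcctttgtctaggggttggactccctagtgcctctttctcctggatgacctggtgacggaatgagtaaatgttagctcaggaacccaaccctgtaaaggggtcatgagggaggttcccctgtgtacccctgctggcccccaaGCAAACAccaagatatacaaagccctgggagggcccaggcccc
Bpifb1 downstream start, chr2:154200130-154200379, forward strand: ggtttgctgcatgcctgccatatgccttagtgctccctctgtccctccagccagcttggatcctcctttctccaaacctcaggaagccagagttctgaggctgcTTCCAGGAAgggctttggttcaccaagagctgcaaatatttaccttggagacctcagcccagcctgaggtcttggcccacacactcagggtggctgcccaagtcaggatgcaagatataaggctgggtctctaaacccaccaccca
Scgb3a1, chr11:49663345-49663594, forward strand: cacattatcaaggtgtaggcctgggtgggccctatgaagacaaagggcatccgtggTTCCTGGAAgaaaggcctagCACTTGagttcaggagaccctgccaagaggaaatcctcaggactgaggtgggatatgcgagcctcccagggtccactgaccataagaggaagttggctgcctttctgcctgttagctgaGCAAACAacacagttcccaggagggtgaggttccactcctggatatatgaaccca
The motifs searched were TTCNNNGAA (STAT3-type), the same letters with 1 more N (STAT6-type), TGTTTNC (FOXA), TTGCNNAA (C/EBP), CAAGTG (NKX2-1) and TGANTCA (AP-1). Of 32851 RefSeq promoters of this length, 7.02%, 5.85%, 17.8%, 9.56%, 11.6% and 6.75% held them in that order. Slpi held a C/EBP match 241 bases and an NKX2-1 match 37 bases before the start. Bpifa1 held an AP-1 match at 155 bases. Bpifb1 held a FOXA match 43 bases before the upstream start and a STAT3-type match 146 bases before the downstream start. Scgb3a1 held a STAT3-type match at 194 bases, an NKX2-1 match at 174 bases and a FOXA match at 55 bases. None of these matches overlapped another. Cyp2f2 held an NKX2-1 match at 191 bases, and no match was found in the windows of Pigr and Reg3g. A match is a description of letters and not a binding site.

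Values are RPM, reads scaled to the size of each library, and the reads behind them could be recovered because every value was a whole multiple of that of 1 read. Reads on genes ranged from 13089691 to 17393579 in the 14 saline libraries and from 2298645 (Sham-OVA replicate 3) to 12185451 in Sham-OVA and 4324326 to 12355561 in PM-OVA. Sham replicate 1 went against the female sex of the other libraries, with 0.289 RPM of Xist against 174 to 1618 RPM elsewhere, and 123 RPM of Ddx3y against at most 0.132 RPM. Where its removal changed a call among the 10 genes, the value without it is given beside the result. The OVA challenge moved the median of the 16795 genes tested by -0.48 (log2) in Sham offspring and by -0.43 in PM offspring on the RPM scale, and by -0.17 and -0.13 after median-of-ratios scaling. The split of genes called higher and lower depended on that scale, at 3453 and 7978 in Sham offspring by RPM against 5584 and 5669 by edgeR, and at 3379 and 7589 in PM offspring against 5120 and 5095.

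Per length of exon, Scgb1a1 was the most abundant of all genes with a known length (34158) in every saline library. Its level was 44913 RPM per kb in the median Sham library (range 27312 to 72262). Cyp2f2 followed at 989 (774 to 1213) and Scgb3a2 at 344 (212 to 551), and the ranges of these 3 genes did not overlap in Sham. From there down, each gene's range overlapped that of the next: Slpi at 21.6, Cckar at 17.3, Scgb3a1 at 14.9, Pigr at 11.8, Bpifa1 at 1.30, Bpifb1 at 0.236 and Reg3g at 0.164 RPM per kb. In PM the medians were 35839 for Scgb1a1, 841 for Cyp2f2, 360 for Scgb3a2, 45.2 for Scgb3a1 and 21.4 for Slpi. In Sham-OVA the order was different, with Scgb1a1 first at a median of 23940.1, then Slpi at 5000.4 and Scgb3a1 at 563, and with Cckar last at 2.17. Of these neighbours, Scgb1a1 and Slpi did not overlap, nor did Slpi and Scgb3a1. PM-OVA had the same order in its medians, with Slpi at 4823, Scgb3a1 at 1680 and Cckar at 3.96. Scgb1a1 remained within the 3 most abundant genes of each OVA library.

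**Figure D1:**
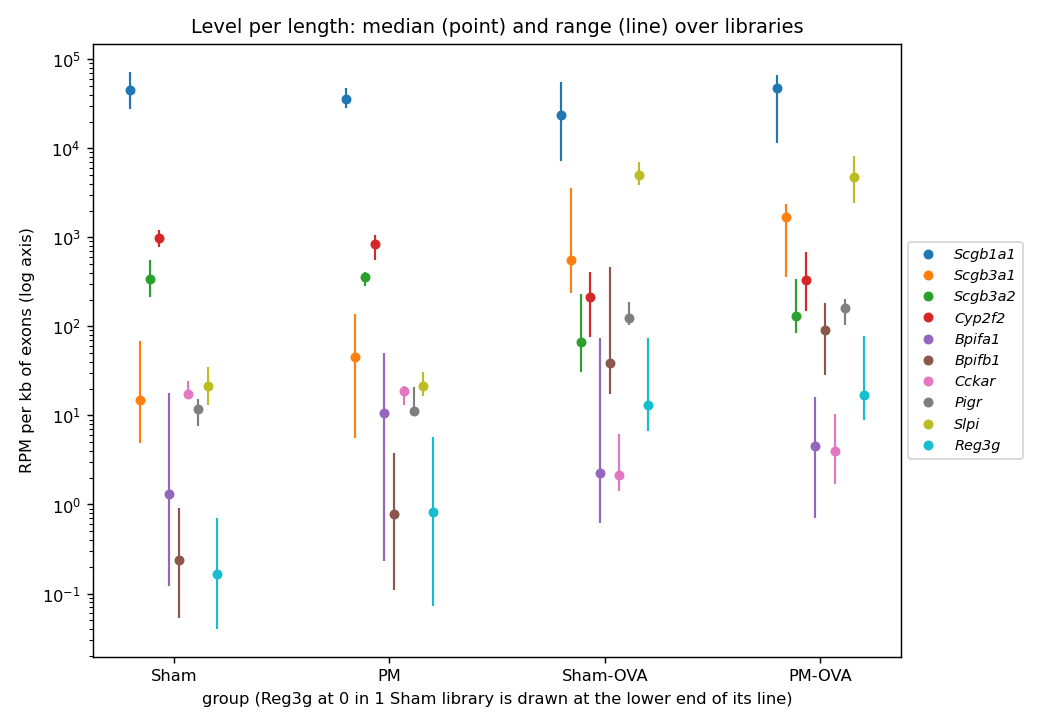
Levels per length, in RPM per kb of exons on a log axis, in the 4 groups, with points for the median and lines for the range over 7, 7, 5 and 4 libraries. Scgb1a1 is at the top of each group, Slpi moves from a median of 21.6 in Sham to 5000.4 in Sham-OVA, and Cckar moves to the bottom in both OVA groups.

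OVA-challenged lungs had more RNA of 5 of the 10 genes and less of 3. Slpi, Bpifb1, Reg3g, Scgb3a1 and Pigr rose in offspring of both kinds of mother, by 3.59 to 7.86 on the log2 scale, while Cckar, Cyp2f2 and Scgb3a2 fell by 1.24 to 2.72. Scgb1a1 and Bpifa1 did not pass the test in either. Thus 8 of 10 passed an adjusted p of 0.05 (limma) in each comparison, 5 higher and 3 lower. Among all genes 68.1% passed in Sham-OVA against Sham (20.6% higher, 47.5% lower) and 65.3% in PM-OVA against PM (20.1% higher, 45.2% lower), so that count alone is near the background. The size of the rises was less common, since 0.75% of genes in Sham offspring and 0.566% in PM offspring passed with a log2 fold change above 3, as did these 5 genes. OVA and saline libraries did not overlap for 5 genes higher and 2 lower (Cyp2f2, Cckar) in Sham offspring, where 13.2% and 35% of all genes were so separated, and for 5 higher and 1 lower (Cckar) in PM offspring, where 13.3% and 28.6% were. The study set a threshold for DESeq2 on raw counts, an adjusted p below 0.000001 with a log2 fold change beyond 1 either way. Applied here to limma, it was passed by Bpifb1, Pigr, Slpi and Reg3g in Sham offspring (4.51% of genes) and by Pigr and Slpi in PM offspring (0.286%). Without Sham replicate 1 the first count was 2 of the 10 genes and 367 of all genes (758 with it), and leaving out other single libraries also moved these counts, to between 2 and 6 in Sham offspring and between 1 and 2 in PM offspring. By DESeq2 on recovered reads 6 and 4 of the 10 genes passed, and 4814 and 2817 of all genes. The study's lists of cell type genes held Pigr and Scgb3a1 as shared by both kinds of offspring, Cckar as Sham only and Bpifb1 as PM2.5 only. Here Bpifb1 rose in both, by 6.98 in Sham and 6.70 in PM offspring, and Cckar fell in both. DESeq2 on recovered reads gave no adjusted p for Bpifb1 in Sham-OVA against Sham. In bulk RNA, fewer cells of a type and less RNA per cell cannot be told apart.

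**Figure D2:**
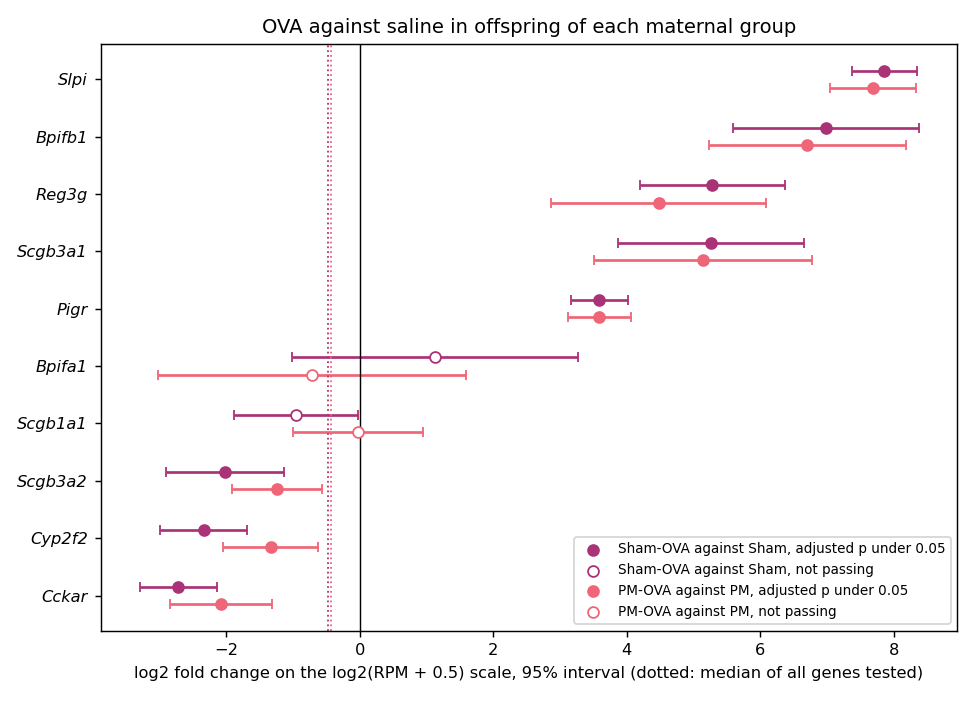
Log2 fold changes of the 10 genes on the log2(RPM + 0.5) scale (horizontal axis) with 95% intervals, for Sham-OVA against Sham and PM-OVA against PM, with filled points at an adjusted p under 0.05 and dotted lines at the median of all genes. The 5 genes with rises lie between 3.59 and 7.86, Bpifa1 and Scgb1a1 have open points, and Scgb3a2, Cyp2f2 and Cckar lie left of both dotted lines.

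The 3 secretoglobins went in different directions. Scgb1a1 (ENSMUSG00000024653, chromosome 19, 9083636 to 9087958) encodes uteroglobin, also called club cell secretory protein. Its RPM was 13001 to 34397 in Sham (median 21378) and 13640 to 22620 in PM (median 17060). In Sham-OVA replicates 1 to 5 it was 3404, 9898, 14563, 11395 and 26224 RPM, and in PM-OVA replicates 1 to 4 it was 5419, 31944, 25274 and 19822 RPM. The groups overlapped, and the lowest library of each OVA group was its replicate 1. The log2 fold change was -0.96 (SE 0.43, adjusted p = 0.0628) in Sham offspring and -0.03 (SE 0.45, adjusted p = 0.961, 95% interval -1.0 to 0.95) in PM offspring. Without Sham replicate 1 the first passed the test, at -1.07 (adjusted p = 0.0496), and without Sham-OVA replicate 5 it was -1.28 (adjusted p = 0.0141), whereas it was -0.54 (adjusted p = 0.216) without Sham-OVA replicate 1 and -0.22 (adjusted p = 0.64) by edgeR. In PM offspring it was 0.53 (adjusted p = 0.221) without PM-OVA replicate 1. Scgb1a1 alone took 1.57% to 3.96% of gene RPM in Sham and 0.402% to 3.20% in Sham-OVA.

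Scgb3a2 encodes a secretoglobin of the bronchioles. It had 186 to 485 RPM in Sham (median 303) and 249 to 362 in PM (median 317). Its values were 27.0, 50.9, 152, 58.3 and 202 RPM in Sham-OVA and 73.6, 297, 152 and 80.4 RPM in PM-OVA. All but 1 library of each OVA group lay below every saline library of the same mothers. The log2 fold changes were -2.02 (SE 0.42, adjusted p = 0.000613) and -1.24 (SE 0.31, adjusted p = 0.00394), and the latter was -0.66 with an adjusted p of 0.0551 by DESeq2 and -0.66 with 0.0776 by edgeR.

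Scgb3a1 (ENSMUSG00000064057, chromosome 11, 49663610 to 49665118) encodes a secretoglobin of the larger airways. It had 2.91 to 40.9 RPM in Sham (median 8.94) and 3.38 to 82.3 in PM (median 27.0). It reached 140, 337, 2161, 273 and 681 RPM in Sham-OVA and 214, 980, 1401 and 1029 RPM in PM-OVA, above every saline library. The rises were 5.26 (SE 0.65, adjusted p = 7.54e-06) and 5.14 (SE 0.76, adjusted p = 0.000172) on the log2 scale. The spread within Sham-OVA was 15.4-fold.

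Cyp2f2 (ENSMUSG00000052974, chromosome 7, 27119909 to 27133660) encodes the cytochrome P450 with which mouse club cells activate naphthalene and styrene. It had 1567 to 2457 RPM in Sham (median 2003) and 1128 to 2157 in PM (median 1702). In Sham-OVA it fell to 154, 353, 455, 432 and 825 RPM, all below Sham. In PM-OVA it had 301, 1377, 788 and 570 RPM, and replicate 2 lay within the PM range. The log2 fold changes were -2.34 (SE 0.30, adjusted p = 1.21e-05) and -1.33 (SE 0.33, adjusted p = 0.00339), the latter -0.76 with an adjusted p of 0.0576 by edgeR. Its antisense neighbour Gm15883 had a mean of 0.128 RPM in Sham and 0 in Sham-OVA.

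The BPI fold genes Bpifa1 (SPLUNC1, ENSMUSG00000027483, chromosome 2, 154142880 to 154149219) and Bpifb1 (LPLUNC1, ENSMUSG00000027485, chromosome 2, 154190818 to 154220369) lie 41598 bases apart and encode secreted lipid-binding defence proteins of the upper and conducting airways. Bpifb1 had 0.190 to 3.30 RPM in Sham (median 0.853, 3 to 57 reads) and 0.395 to 13.8 in PM (median 2.82). It rose to 63.4, 160, 1701, 102 and 141 RPM in Sham-OVA and to 102, 272, 665 and 385 RPM in PM-OVA. No OVA library overlapped the saline libraries, with log2 fold changes of 6.98 (SE 0.65, adjusted p = 5.98e-07) and 6.70 (SE 0.68, adjusted p = 1.74e-05).

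Bpifa1 had 0.190 to 27.6 RPM in Sham (median 2.01) and 0.358 to 78.6 in PM (median 16.5). In Sham-OVA it was at 1.11, 6.24, 113, 0.956 and 3.51 RPM and in PM-OVA at 5.11, 25.0, 9.03 and 1.09 RPM, so OVA and saline libraries overlapped in both comparisons. The log2 fold changes were 1.12 (SE 1.00, adjusted p = 0.333) and -0.71 (SE 1.07, adjusted p = 0.57), and edgeR gave 3.01 (adjusted p = 0.044) for the first. The first was 0.06 (adjusted p = 0.947) without Sham-OVA replicate 3 and 1.69 (adjusted p = 0.116) without Sham replicate 4. The second ranged from -1.35 without PM-OVA replicate 2 to -0.01 without PM-OVA replicate 4, and was -0.24 without PM replicate 1. The ratio of Bpifb1 to Bpifa1 within a library was 0.0621 to 1.63 in Sham, 0.107 to 1.43 in PM, 15 to 106 in Sham-OVA and 10.9 to 353 in PM-OVA. The promoter windows of the 2 genes had no motif in common.

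Among the receptors, Cckar (ENSMUSG00000029193, chromosome 5, 53697776 to 53707705) encodes the type A receptor for cholecystokinin, a peptide hormone of gut and brain. It had 57.8 to 90.4 RPM in Sham (median 63.5) and 47.9 to 79.1 in PM (median 68.7). Its values in Sham-OVA were 7.30, 7.97, 5.28, 12.0 and 22.7 RPM and in PM-OVA 17.7, 37.7, 6.24 and 11.4 RPM. No OVA library overlapped the saline libraries, and the falls were -2.72 (SE 0.27, adjusted p = 1.11e-06) and -2.07 (SE 0.35, adjusted p = 0.000374). Only 17 reads stood behind the value of Sham-OVA replicate 3. Of the other 3 genes of that system, Gast and Cckbr were listed at 0 in every library and Cck in all but 1, at 0.363 RPM, whereas Pam, which amidates peptide hormones, fell in both comparisons. Its mean was 264 ± 28.5 RPM (SD, n = 7) in Sham and 110 ± 32 (n = 5) in Sham-OVA, and the PM and PM-OVA means were 287 ± 18.6 (n = 7) and 120 ± 65.8 (n = 4) RPM (log2 -1.33 and -1.42, adjusted p = 4.6e-05 and 0.000742).

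Pigr (ENSMUSG00000026417, chromosome 1, 130826684 to 130852249) encodes the polymeric immunoglobulin receptor. It had 30.8 to 62.0 RPM in Sham (median 47.5) and 39.2 to 83.0 in PM (median 45.1). Sham-OVA libraries had 420, 491, 504, 638 and 763 RPM and PM-OVA libraries 419, 680, 622 and 813 RPM. The rise was 3.59 in both, with SE 0.20 (adjusted p = 7.64e-09) and 0.22 (adjusted p = 3.47e-07), and the libraries of an OVA group spanned no more than 1.94-fold. A list of 8 genes was drawn up for its cargo, of which 3 were analysed, since Igha, Ighm, Igkc, Iglc1 and Iglc3 were not analysed here. Jchain, the chain that joins immunoglobulin dimers, rose in both comparisons, with means of 54.0 ± 40.9 RPM (SD, n = 7) in Sham and 7611 ± 2455 (n = 5) in Sham-OVA. The PM and PM-OVA means were 29.9 ± 13.7 (n = 7) and 6286 ± 2225 (n = 4) RPM. Mzb1, a chaperone of plasma cells and not itself cargo, rose by 8.04 and 7.72 on the log2 scale (adjusted p = 7.95e-12 and 4.24e-08).

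The antiprotease and the lectin rose in both comparisons. Slpi (ENSMUSG00000017002, chromosome 2, 164354070 to 164389095) encodes secretory leukocyte protease inhibitor, which inhibits neutrophil elastase and cathepsin G. It had 15.3 to 41.0 RPM in Sham (median 25.5) and 19.3 to 35.9 in PM (median 25.3). It stood at 4543, 6696, 8187, 5083 and 5900 RPM in Sham-OVA and at 2856, 3749, 7634 and 9797 RPM in PM-OVA. The lowest OVA library was thus far above the highest saline library, and the rises were 7.86 (SE 0.23, adjusted p = 8.7e-12), or 232-fold, and 7.69 (SE 0.29, adjusted p = 1.01e-08), or 206-fold. They ranked 5 and 7 from the top of 16795 genes. Of 7 genes of the proteases it inhibits and their family, Elane, which encodes neutrophil elastase, and Ctsg were too low to test, and 2 of the other 5 rose in each comparison (4 in Sham offspring without Sham-OVA replicate 3 and by edgeR, and 2 fell in PM offspring without PM-OVA replicate 1). Among all genes 20.6% rose in Sham offspring and 20.1% in PM offspring. Prtn3, which encodes proteinase 3, rose by 1.29 and 1.43, from 1.00 ± 0.278 RPM (SD, n = 7) in Sham to 3.15 ± 0.584 (n = 5) in Sham-OVA, and Tpsb2, a mast cell tryptase, by 2.26 and 1.13, the latter 0.63 (adjusted p = 0.244) with array weights.

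Reg3g (ENSMUSG00000030017, chromosome 6, 78466269 to 78468872) encodes a C-type lectin that kills Gram-positive bacteria. It had 0 to 1.51 RPM in Sham (median 0.347, 0 to 27 reads) and 0.153 to 12.2 in PM (median 1.76). The 0 in Sham replicate 2 allows up to 0.19 RPM, the value of 3 reads. OVA libraries had 23.6, 27.4, 157, 14.3 and 42.4 RPM in Sham-OVA and 25.2, 165, 46.3 and 18.7 RPM in PM-OVA, none within the saline range. The log2 fold changes were 5.28 (SE 0.51, adjusted p = 7.68e-07) and 4.48 (SE 0.74, adjusted p = 0.000327).

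**Figure D3:**
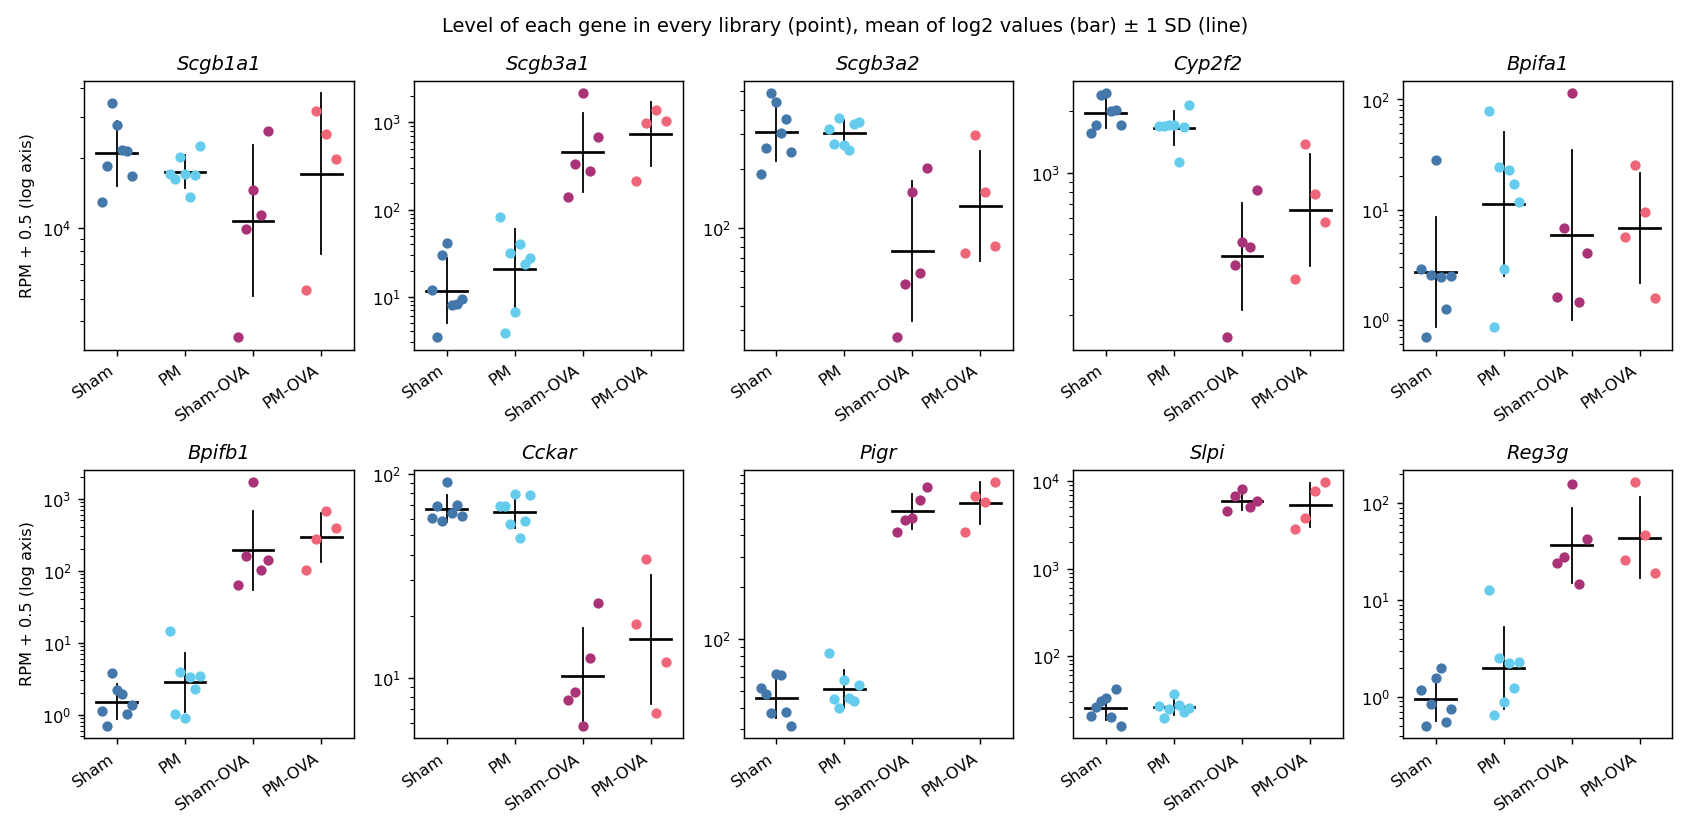
RPM + 0.5 (log axis) of the 10 genes in each of the 23 libraries, as points, with bars for the mean of log2 values and lines for 1 SD, in Sham (n = 7), PM (n = 7), Sham-OVA (n = 5) and PM-OVA (n = 4). Slpi stands at 15.3 to 41.0 RPM in Sham and at 4543 to 8187 in Sham-OVA, while the 4 groups overlap for Bpifa1 and Scgb1a1.

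Since Scgb1a1 was lowest in replicate 1 of each OVA group, the other genes were also expressed as a ratio to Scgb1a1 in the same library, an analysis chosen after the data were seen. Apart from the 0.5 RPM added before taking logs, this ratio does not depend on the scaling of the library. That addition matters for low genes. With 0.1 in its place, the difference in ratio between Sham-OVA and Sham went from 6.24 to 7.29 for Reg3g. For Bpifb1 it went from 7.94 to 8.49. In each OVA comparison 8 of 9 ratios passed (two-sided exact permutation test, Benjamini-Hochberg adjustment over 36 ratios), all but that of Bpifa1. The Cyp2f2 ratio was -4.80 ± 0.22 (log2, SD, n = 5) in Sham-OVA against -3.42 ± 0.24 (n = 7) in Sham, a difference of -1.38 (exact p = 0.00253, adjusted p = 0.013). In PM offspring it differed by -1.31 (exact p = 0.00606, adjusted p = 0.0145), and these p-values are the smallest the group sizes allow. The Scgb3a2 ratio differed by -1.06 (exact p = 0.00253, adjusted p = 0.013) and -1.21 (exact p = 0.00606, adjusted p = 0.0145), with no overlap in either. Relative to Scgb1a1, Slpi rose by 8.81 and 7.71 and Pigr by 4.55 and 3.61, with the same p-values. The Cckar ratio differed by -1.76 (exact p = 0.00505, adjusted p = 0.0145) and -2.05 (exact p = 0.0121, adjusted p = 0.0257), and the latter lost its call without PM-OVA replicate 2, 3 or 4 (exact test, adjusted p = 0.0706 each), at -2.18, -1.46 and -1.85.

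Maternal PM2.5 exposure without OVA changed none of the 10 genes at an adjusted p of 0.05. This was so of all genes, with 0 of 16795 called (0%) by limma, DESeq2 and edgeR, while 731, 843 and 783 had an unadjusted p under 0.05. The largest positive difference of all 16795 genes on the log2 scale was that of Bpifa1, at 2.04 (SE 0.90, unadjusted p = 0.037, adjusted p = 0.898), with Reg3g at 1.07, Bpifb1 at 0.89 and Scgb3a1 at 0.83, and these 4 were among the 10 largest positive differences. In each of them the highest saline library was PM replicate 1, with 78.6 RPM of Bpifa1, 12.2 of Reg3g, 13.8 of Bpifb1 and 82.3 of Scgb3a1. Without it, the differences were 1.57, 0.63, 0.50 and 0.50. Without Sham replicate 1 that of Bpifa1 was 2.06 and none of the 10 genes had an unadjusted p under 0.05. The goblet cell markers summed to 209 RPM in that library against 5.32 to 13.5 in the other saline libraries, of which Clca1 made up 178 RPM. The part of this library's goblet cell RNA in the differences was not tested. In 5 of 7 PM libraries Bpifa1 had 11.2 to 78.6 RPM, whereas 6 of 7 Sham libraries had at most 2.37, and PM replicates 2 and 4 had 0.358 and 2.37. Scgb1a1 differed by -0.26 (95% interval -1.18 to 0.66), Cyp2f2 by -0.24 (-0.58 to 0.09) and Pigr by 0.16 (-0.21 to 0.54). One ratio to Scgb1a1 passed, that of Scgb3a2, at -5.85 ± 0.15 (log2, SD, n = 7) in PM against -6.08 ± 0.11 (n = 7) in Sham. The difference was 0.24 (exact p = 0.00699, adjusted p = 0.0157), 4 of 7 PM libraries lay above every Sham library, and it passed with each library left out in turn (0.20 to 0.27).

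In OVA-challenged lungs, none of the 10 genes passed in PM-OVA against Sham-OVA (limma, adjusted p = 1 for each), and 0 of 16795 genes (0%) were called, with 313 at an unadjusted p under 0.05. DESeq2 called 1 gene, which was none of these 10, and edgeR 0. The difference of PM-OVA from Sham-OVA was 0.76 (log2, 95% interval -0.41 to 1.92) for Cyp2f2, 0.75 (-0.65 to 2.15) for Scgb3a2 and 0.71 (-1.07 to 2.49) for Scgb3a1, and each interval includes 0. The test of whether the OVA response itself differed between offspring of the 2 kinds of mother called none of the 10, and 0 of 16795 genes (0%), with 854 at an unadjusted p under 0.05 (DESeq2 called 2 genes and edgeR 0). The response of Cyp2f2 differed by 1.00, PM offspring minus Sham offspring (log2, SE 0.47, unadjusted p = 0.0423, adjusted p = 0.944). That of Scgb1a1 differed by 0.93 (95% interval -0.37 to 2.23) and the response of Bpifa1 by -1.84 (-5.10 to 1.42).

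In the 14 saline libraries the 10 genes varied in sets. After removal of group means, 45 pairs were compared over 14 libraries by permutation tests of 100000 draws with adjustment over the pairs. Scgb1a1 varied with Scgb3a2 (r = 0.94, rho = 0.93, permutation p = 1e-05 and 3e-05, adjusted p = 0.000225 and 0.00045) and with Cyp2f2 (r = 0.87, rho = 0.94, permutation p = 8e-05 and 1e-05, adjusted p = 9e-04 and 0.000225). Each r was also computed without the 2 libraries farthest from the median of 1 gene of the pair. For Scgb1a1 these were Sham replicates 1 and 3, and r was 0.87 and 0.91. Scgb3a1 varied with Bpifa1 (r = 0.93, rho = 0.91, permutation p = 1e-05 for each, adjusted p = 0.000225) and with Bpifb1 (r = 0.89, rho = 0.86, permutation p = 2e-05 and 9e-05, adjusted p = 0.0003 and 0.00101). Without PM replicate 2 and Sham replicate 2, the farthest for Scgb3a1, r was 0.88 and 0.86. PM replicate 1, the highest library of these 3 genes, stayed in, so its part in these 2 correlations was not tested. Reg3g varied with Bpifb1 (r = 0.87, rho = 0.84, permutation p = 0.00011 and 0.00036, adjusted p = 0.00099 and 0.0027) and with Bpifa1 (r = 0.81, rho = 0.76, permutation p = 0.00048 and 0.00222, adjusted p = 0.0036 and 0.0143). The first r was 0.72 without PM replicates 1 and 4, and the second 0.82 without PM replicate 2 and Sham replicate 4. In the second, PM replicate 1, the highest saline library of both Reg3g and Bpifa1, stayed in, so its part was not tested. Scgb1a1 and Bpifa1 had r = 0.21 and rho = 0.24 (permutation p = 0.465 and 0.415, adjusted p = 0.731 and 0.636). Libraries share 1 total, so values in RPM are not free of each other. For Pigr with Reg3g, r was 0.64 and fell to 0.29 without PM replicate 1 and Sham replicate 4 (rho = 0.44, permutation p = 0.0124 and 0.12, adjusted p = 0.0532 and 0.318).

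**Figure D4:**
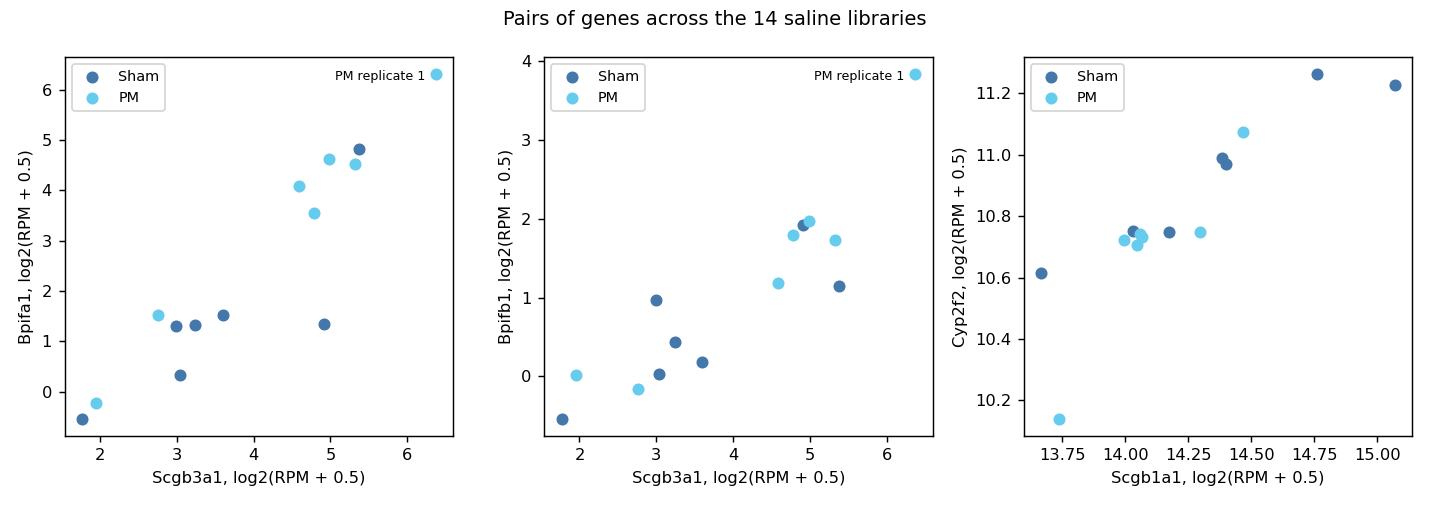
Pairs of genes in log2(RPM + 0.5) on both axes across the 7 Sham and 7 PM libraries, each point 1 library. Bpifa1 and Bpifb1 climb with Scgb3a1 up to PM replicate 1 at the top right, and Cyp2f2 climbs with Scgb1a1.

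In deviations from the group means over all 23 libraries, the 3 genes most like Scgb1a1 among 11716 genes of at least 5 RPM on average were Cyp2f2 (r = 0.95) and the cilium genes Cfap126 (r = 0.94) and Tmem212 (r = 0.94). Those most like Bpifa1 were Reg3g (0.86), Scgb3a1 (0.83) and Bpifb1 (0.77). Reg3g was most like Bpifa1 (0.86), Tff2 (0.82), which encodes a trefoil peptide of mucous cells, and Bpifb1 (0.75). Pigr had weaker neighbours in Tprn (0.71), Dhx38 (0.70) and Coro2a (0.68). These correlations are descriptions.

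Of 25 further genes of club cells, 24 were tested, and 6 rose and 13 fell in Sham offspring, where 20.6% and 47.5% of all genes did. In PM offspring 8 rose and 6 fell, where 20.1% and 45.2% of all genes did. By edgeR the counts were 8 and 7 in Sham offspring and 10 and 4 in PM offspring. Of all 16795 genes, edgeR called 5584 higher and 5669 lower in Sham offspring, and 5120 and 5095 in PM offspring. The medians were -0.72 and 0.04 beside -0.48 and -0.43 over all genes. Muc5b, a gel-forming mucin of the airways, rose the most, from 11.9 ± 9.35 RPM (SD, n = 7) in Sham to 139 ± 81.5 (n = 5) in Sham-OVA (log2 3.57, adjusted p = 1.75e-05) and by 3.91 in PM offspring (adjusted p = 3.16e-05). Cbr2, a carbonyl reductase and the highest of the list, had 2390.1 ± 763 RPM in Sham and 1378 ± 589 in Sham-OVA (log2 -0.83, adjusted p = 0.016), a call that was lost after median-of-ratios scaling (-0.46, adjusted p = 0.172) and without Sham-OVA replicate 1 (-0.65, adjusted p = 0.0519), and 1841 ± 238 in PM and 2109 ± 1037 in PM-OVA. All 10 club cell markers used to check the tissue were detected. Scgb1a1, Scgb3a2 and Cyp2f2 are among them, so the check is not independent of the genes described here. The markers summed to 17574 to 43054 RPM in Sham, 18066 to 29228 in PM, 5008 to 31053 in Sham-OVA and 7803 to 39251 in PM-OVA. Scgb1a1 made up 13001 of the 17574 RPM in Sham replicate 1. Of the 10 markers, 2 rose and 6 fell in Sham offspring, and 3 rose and 4 fell in PM offspring, beside the shares of all genes given above.

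Of 12 airway transcription factors, 5 rose and 5 fell in Sham offspring, and 5 rose and 4 fell in PM offspring, beside 68.1% and 65.3% of all genes called in either direction. Median-of-ratios scaling gave 6 and 3 in both. Foxa3, which acts with Spdef in mucous cells, rose from 0.274 ± 0.245 RPM in Sham to 4.36 ± 2.87 in Sham-OVA (log2 2.51 in Sham and 3.04 in PM offspring, adjusted p = 1.77e-05 and 1.05e-05). Foxa1, a pioneer factor of airway epithelium, fell from 46.3 ± 5.03 to 9.78 ± 5.65 RPM (log2 -2.51 and -2.0, adjusted p = 9.77e-05 and 0.000573). Nkx2-1, the lung lineage factor and the highest of the list, had 255 to 430 RPM in Sham and 136 to 292 in Sham-OVA and did not pass. Among 26 other secreted defence genes, 17 were tested, of which 10 rose and 4 fell in Sham offspring (2 fell with median-of-ratios scaling) and 9 rose and 2 fell in PM offspring. Of all genes, 20.6% rose and 47.5% fell in Sham offspring, and 20.1% and 45.2% in PM offspring. Chil4, a chitinase-like protein, rose from at most 0.116 RPM in Sham to 7.57 to 66.5 RPM in Sham-OVA, and Lyz1, a lysozyme, fell from 18.2 ± 8.38 to 3.26 ± 1.35 RPM (log2 -2.32 and -2.49, adjusted p = 3.16e-05 and 5e-05). Reg3a, Reg3b and Reg3d, paralogues of Reg3g, were at 0 in every library, as were Bpifa2 and Bpifb3 beside Bpifa1 and Bpifb1.

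A list of 13 genes held the cytokines IL-22, IL-17 and IFN-gamma, which are known inducers of Pigr and Reg3g, with receptor chains and with Il1b, Il6 and Stat3. Of these, 9 were tested, and 3 rose (Il10rb, Il17rc and Stat3) and 3 fell (Il22ra1, Il22ra2 and Ifngr1) in each comparison. The shares of all genes were 20.6% higher and 47.5% lower in Sham offspring, and 20.1% and 45.2% in PM offspring. With median-of-ratios scaling 5 rose in Sham offspring. Il17rc rose from 27.6 ± 4.32 RPM in Sham to 88.2 ± 51.2 in Sham-OVA (log2 1.52 and 1.63, adjusted p = 7.4e-05 and 0.000985). Ifngr1, the highest of the list, fell from 276 ± 35.6 to 120 ± 53.8 RPM (log2 -1.37 and -1.34, adjusted p = 0.00105 and 0.00169). Il22ra1, the receptor chain of IL-22 in epithelium, had 0.502 to 1.45 RPM in Sham and was listed at 0 in the 5 Sham-OVA libraries. Il22, Il17a, Il17f and Ifng were too low to test.

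Markers of other cells moved with these results, and their part in them was not tested. The counts below stand beside 20.6% of all genes higher and 47.5% lower in Sham offspring, and 20.1% and 45.2% in PM offspring. Of 8 goblet cell markers, 8 rose in Sham offspring and 7 in PM offspring, and their sum went from 5.32 to 13.5 RPM in Sham to 476 to 1921 in Sham-OVA and, in PM offspring, from 6.98 to 209 without OVA to 1174 to 4908 with it. Clca1 was the largest rise of that list, from at most 6.16 RPM in Sham to 423 to 1755 in Sham-OVA. Of 8 multiciliated cell markers, 1 rose in Sham offspring and 7 in PM offspring, and 0 fell. The count of 1 became 3 with median-of-ratios scaling, by edgeR and without Sham replicate 3 or Sham-OVA replicate 1, and 1 fell without Sham-OVA replicate 3, and whether the OVA response of these markers differed by mother was not called for any of the 8. They summed to 480 to 885 RPM in Sham, 458 to 721 in PM, 348 to 910 in Sham-OVA and 553 to 1342 in PM-OVA, and the lowest library of each OVA group was replicate 1, as for Scgb1a1. Dynlrb2, a dynein light chain, rose by 1.22 and 2.02 (adjusted p = 0.00508 and 0.000177). Of 8 alveolar type 2 markers, 2 rose and 3 fell in each comparison (0 rose with quantile normalisation, and 5 and 4 by edgeR), with sums of 14107 to 24728 RPM in Sham, 17211 to 31988 in PM, 30022 to 36817 in Sham-OVA and 24226 to 43719 in PM-OVA. Sftpc rose by 1.19 and 1.14 (adjusted p = 0.00147 and 0.0106), calls that quantile normalisation did not keep (0.45 and 0.25, adjusted p = 0.363 and 0.665), whereas Lamp3 fell, at -3.34 and -4.25 (adjusted p = 0.000627 and 0.0012). Of 7 plasma cell markers, 5 rose and 1 fell in each, with sums of 359 to 562 RPM in Sham, 391 to 535 in PM, 7235 to 12540 in Sham-OVA and 6764 to 11039 in PM-OVA. Basal cell markers summed to at most 7.42 RPM and airway cartilage markers to at most 6.72 RPM in any library, with Krt17 at 0 in every saline library and Acan at 0 in 23 of 23 libraries.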

How the data were processed

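RNA-Seq of lung from 23 offspring (7 Sham, 7 PM, 5 Sham-OVA, 4 PM-OVA) was analysed, with groups and replicate numbers taken from the sample labels. DNA methylation was not analysed here. Upstream, the study used Trimmomatic for trimming, Bowtie2 for alignment (GRCm38) and SeqMonk for quantification of genes, and the labels also name bcl2fastq and the build mm10. The strand setting of the counting is not given in the sources used here. The deposited table holds RPM values, although its name refers to RPKM. In each library 100% of the values were whole multiples of that of 1 read (tolerance 0.05 reads), whatever the gene's length, so reads were recovered from them, and the RPM gives no correction for length. 0 columns of values were left unused. Reads on genes ranged from 2298645 to 17393579 per library. In Sham-OVA replicate 3, 1 read was worth 0.311 RPM. Floors of 3 reads cover counting error only. The 95% intervals are those of limma and measure the spread between libraries.

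The table was planned for as RPKM and tested as RPM. Log2(RPM + 0.5) was used for the 16795 genes that reached 0.5 RPM in 4 or more of 23 libraries and was fitted with limma 3.58.1 (R 4.3.3, trend in the variance, 2 groups per fit, all 4 for the interaction), with Benjamini-Hochberg adjustment over all genes. The labels do not tie libraries to dams, so p-values measure the spread between these libraries. Gene lengths and positions are from GENCODE M21 (GRCm38), and promoters from RefSeq. Ratios to Scgb1a1 were tested with two-sided exact permutation tests (scipy 1.17.1). All 10 genes and, from each other list, the largest rise and fall among calls in Sham offspring, the highest gene in Sham and every gene of a list of at most 4 were to be named. 1 gene that this rule names is not reported here. Genes named as listed at 0 or too low to test were chosen after their values were seen. The genes and lists were chosen with earlier results of these data known. In simulated data with 200 changed genes of 16795, limma recovered 200 in Sham-OVA against Sham (8 false calls), 200 in PM-OVA against PM (11) and 199 in the interaction (13). The simulation fixed its own spread and size of change, so these counts check the fitting and do not measure power in the real libraries. There the median SD of a gene (log2) was 0.48 among Sham-OVA libraries and 0.54 among PM-OVA libraries. For the 10 genes, the SE of the interaction ran from 0.31 (Pigr) to 1.58 (Bpifa1). The alternatives were pseudocounts of 0.1 and 1, no filter, a mean of at least 1 RPM, median-of-ratios and quantile scaling, all 4 groups in a fit, array weights, a replicate block, DESeq2 1.42.0 and edgeR 4.0.16 on recovered reads, and leaving out each library, and counts of calls in the gene lists were recomputed under each. The ratios were added after seeing the data.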

Additional observations from a re-analysis of the deposited data

Results flagged for a closer look

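In 4 of the 40 combinations of gene and group, 1 library stood apart from the rest of its group, where about 1 in 20 would by chance. Cyp2f2 had 1128 RPM in PM replicate 5 against 1669 to 2157 RPM in the other PM libraries, a library that also had the lowest Scgb1a1 (13640 RPM) and the highest sum of alveolar type 2 markers (31988 RPM) of its group. Bpifa1 had 27.6 RPM in Sham replicate 4 where the rest of the group had 0.190 to 2.37 RPM, and Cckar had 90.4 RPM in the same library against 57.8 to 69.4 RPM. Bpifb1 had 1701 RPM in Sham-OVA replicate 3, the shallowest library, against 63.4 to 160 RPM in the other Sham-OVA libraries. That library also had the highest Bpifa1 (113 RPM), Scgb3a1 (2161 RPM) and Reg3g (157 RPM) of its group, at 365 reads for Bpifa1. The causes were not tested.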

How the results depend on the processing

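The number of the 10 genes called stayed within 1.5 times of its value in every comparison and alternative run. It was 8 in Sham-OVA against Sham (7 by DESeq2, which gave no adjusted p for Bpifb1, to 9) and 8 in PM-OVA against PM (6 by edgeR to 8), and 0 in PM against Sham, PM-OVA against Sham-OVA and the interaction. At the study's stricter threshold the counts moved, from 4 genes to between 1 (replicate block) and 7 (array weights) in Sham offspring and from 2 to between 0 (replicate block) and 4 (DESeq2) in PM offspring, and leaving out a library gave 2 to 6 and 1 to 2. Over all genes that threshold gave 758 in Sham offspring (5 under the block to 4814 by DESeq2) and 48 in PM offspring (0 to 2817). Scgb1a1 in PM-OVA against PM changed sign, from -0.03 to 0.34 with median-of-ratios scaling, 0.31 with array weights, 0.67 by DESeq2 and 0.65 by edgeR, was -1.07 with quantile normalisation (adjusted p = 0.092), and ranged from -0.33 to 0.53 with a library left out. In Sham offspring it passed at -1.34 with quantile normalisation (adjusted p = 0.0315), -0.92 with array weights (adjusted p = 0.0413) and -1.02 with the replicate block (adjusted p = 0.0238), and was -0.59 with median-of-ratios scaling (adjusted p = 0.342), -0.29 by DESeq2 and -0.22 by edgeR (adjusted p = 0.64). The interaction called 4616 genes with array weights, 6 without Sham-OVA replicate 5 and at most 2 elsewhere, none of the 10 included. The labels do not say whether the replicate numbers pair the samples, and some OVA library names carry other numbers. Same-numbered deviations correlated at -0.31 to 0.62, with 0.60 and 0.62 for replicates 1 and 3 of PM-OVA and Sham-OVA. Replicate 1 was the deepest library of each of these 2 groups, at 12185451 reads in Sham-OVA and 12355561 in PM-OVA. Replicate 3 had 2298645 and 5922469 reads. Such correlations cannot tell whether libraries shared a litter or a batch, and the part of depth in them was not tested. With the block the members called were 9 and 8, and all genes called 10025 (11431 without it) and 7982 (10968 without it). The causes were not tested. Sham-OVA replicate 3, with 2298645 reads, sets the coarsest step, 0.311 RPM per read.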
